A study of Mus musculus with 3 samples.

Results

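A set of 7 genes by which glia keep the fluid around retinal neurons constant was followed across the cell classes and ages of the mouse retina. They are Glul, Slc1a3, Kcnj10, Aqp4, Rlbp1, Car14 and Car2, chosen by symbol as 7 of the 32285 genes in the deposited count tables, and all 7 were detected. The data were single-cell RNA-seq libraries of retinal cells that had been enriched for CD31, an endothelial surface protein, from C57BL/6JRj mice. There was 1 library at each of 3 ages, young (3 months), adult (12 months) and old (23 months), and the retinas of a pair of animals were pooled per age. Apart from age, the sources used here name no genotype, transgene or treatment for these animals. With 1 library per age no test between ages was possible, and the intervals given below are exact 95% intervals that cover counting error only, not the spread between animals. Since the cells had been enriched for endothelium, the number of Müller glia recovered reflects the enrichment as well as the tissue.

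Müller glia span the retina from its inner border to the photoreceptors and wrap every neuron. They take glutamate up through the transporter encoded by Slc1a3 (GLAST) and turn it into glutamine with glutamine synthetase, the product of Glul. They siphon off potassium through the channel Kcnj10 (Kir4.1), and water follows through the channel Aqp4, which is concentrated at the endfeet on vessels. Rlbp1 encodes CRALBP, the binding protein that carries visual-cycle retinoids in Müller glia and in the pigment epithelium. Car2 is a cytosolic and Car14 a membrane-bound carbonic anhydrase, enzymes that interconvert carbon dioxide and bicarbonate and so buffer the pH around active neurons.

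After limits on cells, 1705, 1957 and 1701 cells were kept from the young, adult and old libraries, with a median of 6353, 5964 and 6296 UMIs (unique molecular identifiers, 1 per captured transcript molecule). Clusters were named from marker genes that include none of the 7. The class named Müller glia held 181, 215 and 210 cells in 2 clusters, in which 10 of 10 and 8 of 10 markers were met. Its median depth was lower in the old library, at 6782 UMIs per cell, than in the young and adult libraries, at 9166 and 9449. The other classes with at least 30 cells in every library were endothelial, mural, rod, cone and bipolar cells. Levels are given as CPM, the UMIs of a gene scaled to 1000000 UMIs of its class in a library. The counts come from transcript 3′ ends, so CPM was not divided by length, and levels are compared within a gene and not between genes.

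In GRCm38 coordinates, Glul (ENSMUSG00000026473) lies on chromosome 1 at 153899944 to 153909723 on the plus strand, and Kcnj10 (ENSMUSG00000044708) lies on the same chromosome at 172341210 to 172374085, also on the plus strand. Slc1a3 (ENSMUSG00000005360) is on the minus strand of chromosome 15 at 8634124 to 8710764. Rlbp1 (ENSMUSG00000039194) is on the minus strand of chromosome 7 at 79374870 to 79387048. Car2 (ENSMUSG00000027562), on the plus strand at 14886273 to 14900770, and Car14 (ENSMUSG00000038526), on the minus strand at 95897768 to 95904691, share chromosome 3. Aqp4 (ENSMUSG00000024411) is on chromosome 18. Car14 overlaps Aph1a on the opposite strand, and Glul overlaps Teddm2, which is on the opposite strand too.

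The promoters of 4 members are shown because these genes differed in the classes that used them. Glul was also found in endothelial cells and pigment epithelium, Rlbp1 and Car14 were high in pigment epithelium, and Slc1a3 was low in both. Each stretch runs from 250 bases before to 50 bases after the RefSeq start site, on the gene's strand, in GRCm38.p6 coordinates. Capitals mark 4 motifs, each searched on both strands. The first is CCAAT, the core of the CCAAT box, which reads ATTGG in reverse. The letters TAATCC, with GGATTA as the reverse, form the site known for CRX and OTX proteins. The core of a SOX site was searched as ACAAT and in reverse as ATTGT. For the TATA box the letters were TATAAA and on the other strand TTTATA.

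Glul, chr1:153899679-153899978, plus strand: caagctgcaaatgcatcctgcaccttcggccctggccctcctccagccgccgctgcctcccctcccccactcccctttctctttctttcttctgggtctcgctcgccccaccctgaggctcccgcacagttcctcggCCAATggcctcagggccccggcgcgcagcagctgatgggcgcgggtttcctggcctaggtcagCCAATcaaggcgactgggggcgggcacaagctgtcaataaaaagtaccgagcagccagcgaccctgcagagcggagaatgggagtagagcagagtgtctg

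Slc1a3, chr15:8710758-8711057, minus strand: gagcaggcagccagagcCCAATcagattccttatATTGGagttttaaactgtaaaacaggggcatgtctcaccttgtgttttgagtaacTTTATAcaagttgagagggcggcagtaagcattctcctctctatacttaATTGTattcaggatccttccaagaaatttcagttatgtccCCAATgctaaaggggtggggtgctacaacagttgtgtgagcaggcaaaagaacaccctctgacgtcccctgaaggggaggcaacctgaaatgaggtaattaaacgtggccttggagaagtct

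Rlbp1, chr7:79386978-79387277, minus strand: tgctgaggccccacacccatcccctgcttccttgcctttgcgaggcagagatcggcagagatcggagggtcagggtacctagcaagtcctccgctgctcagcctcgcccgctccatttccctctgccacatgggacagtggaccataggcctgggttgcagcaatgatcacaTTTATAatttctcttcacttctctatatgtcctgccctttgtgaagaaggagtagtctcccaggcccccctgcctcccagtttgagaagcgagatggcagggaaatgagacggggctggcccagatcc

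Car14, chr3:95904636-95904935, minus strand: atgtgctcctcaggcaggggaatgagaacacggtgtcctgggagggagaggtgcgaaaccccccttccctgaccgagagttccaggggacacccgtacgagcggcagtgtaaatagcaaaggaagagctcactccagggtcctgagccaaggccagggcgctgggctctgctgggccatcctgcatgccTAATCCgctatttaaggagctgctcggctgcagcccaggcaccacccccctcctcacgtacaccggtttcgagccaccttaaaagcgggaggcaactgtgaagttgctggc

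The Glul promoter held 2 CCAAT boxes on the gene's strand, starting 113 and 50 bases before the start site, and none of the other motifs. In the Slc1a3 promoter CCAAT occurred 3 times, and ACAAT and TATAAA once each on the reverse strand. Rlbp1 held a single TATAAA on the reverse strand, and Car14 was alone among these 4 in holding TAATCC, which started 61 bases before its start site. None of these motifs overlapped another in the 4 stretches. Of the 32851 promoters in the table, 37.4% held CCAAT, 7.06% TAATCC, 31.0% ACAAT and 13.6% TATAAA. These matches are a description of letters and do not show that a factor binds. Aqp4 and Car2 had no entry in the table.

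All 7 genes were at their highest in Müller glia among the 6 compared classes in each library. Glul stood at 9850, 10068 and 10025 CPM in young, adult and old Müller glia, and a UMI of it was found in 180 of 181, 212 of 215 and 209 of 210 cells. Slc1a3 stood at 1154, 1049 and 1025 CPM, Kcnj10 at 234, 235 and 215 CPM and Aqp4 at 1257, 1311 and 1358 CPM. For Rlbp1 the levels were 3131, 3414 and 3335 CPM, for Car14 492, 511 and 553 CPM, and for Car2 1959, 2019 and 1953 CPM. Thus each gene held nearly the same level in the 3 libraries.

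**Figure D1:**
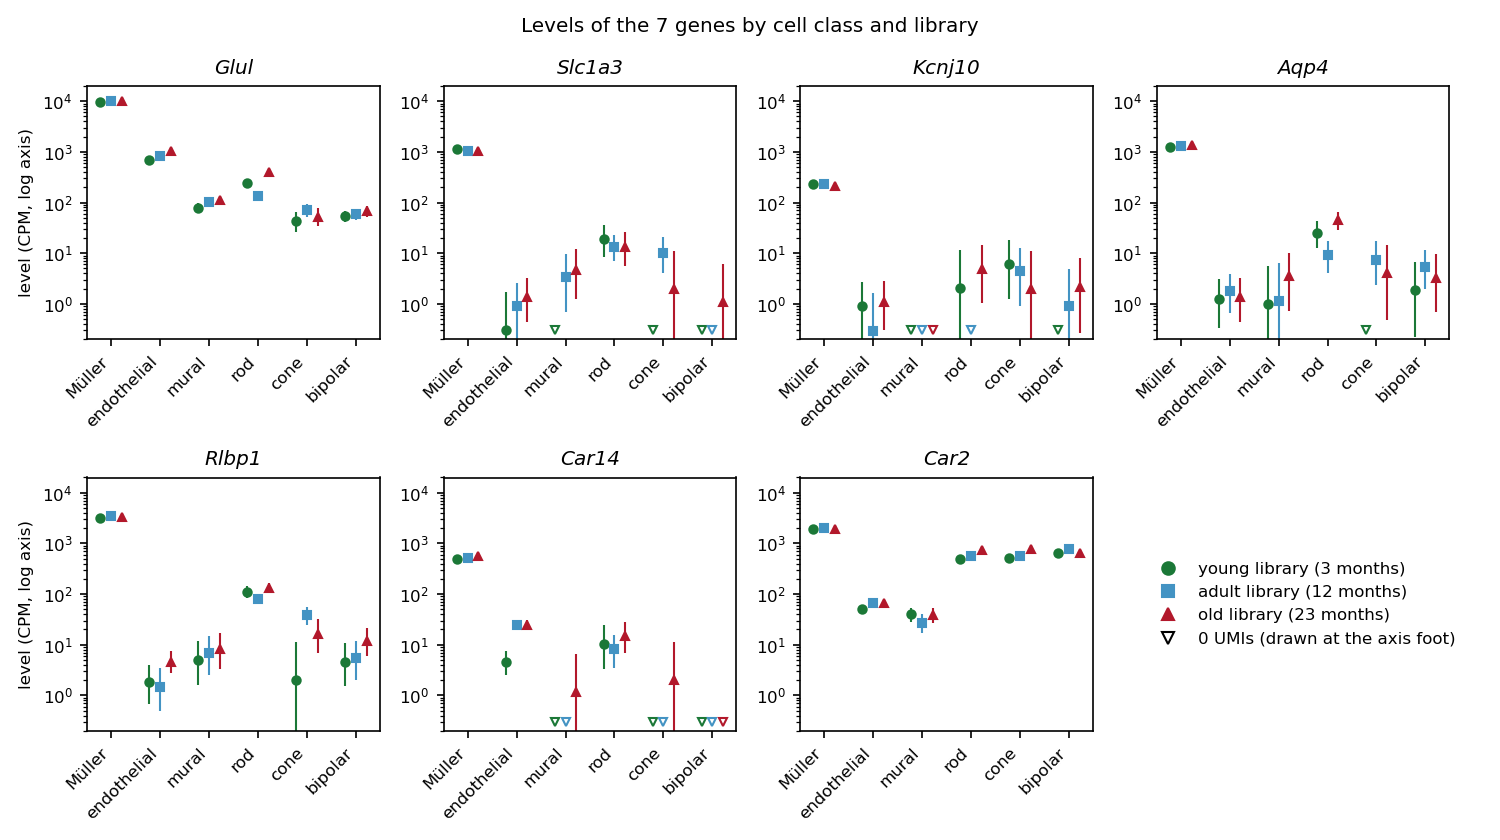
Level of each gene in CPM, on a log axis, in 6 cell classes, with 1 point per library and bars for the exact 95% Poisson interval. The points of a gene in Müller glia lie almost on 1 line, Glul in endothelial cells climbs from 705 to 1027 CPM, and Car2 stays above 490 CPM in the 3 neuron classes.

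The 7 genes differed in how far they were confined to Müller glia. Slc1a3, Kcnj10 and Aqp4, the transporter and the channels, were low elsewhere: of all UMIs in kept cells, 98.5% of those of Slc1a3, 97.7% of those of Aqp4 and 96.9% of those of Kcnj10 lay in this class, which made up 11.3% of the cells. Over the 3 libraries the Müller level of Slc1a3 was 1230 times (648 to 2692) the endothelial one, and that of Aqp4 was 898 times (544 to 1606) as high. Among the compared classes, the nearest to Müller glia for both was the rods. The ratios to rods were 74.5 (52.1 to 111) for Slc1a3 and 56.7 (42.7 to 76.9) for Aqp4. For Kcnj10 the nearest compared class was the cones, with a ratio of 54.7 (26.4 to 136). The small pigment epithelium and lens clusters held Aqp4 at a higher CPM than rods. Pigment epithelium also held Kcnj10 at a higher CPM than cones. Mural cells, the pericytes and smooth muscle of the vessel wall, gave no Kcnj10 UMI, so the Müller level was at least 210-fold higher, taking 3 counts over the class as the limit. For Rlbp1 the share was 93.8%, for Car14 77.6%, for Glul 73.6% and for Car2 only 56.8%. The classes were clustered from these cells, so these contrasts are a description and carry no test.

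Co-detection was compared at equal depth by drawing each cell to 2000 UMIs, which left out 10, 16 and 42 Müller cells below that depth in the young, adult and old libraries. At this depth the median Müller cell carried 6 of the 7 genes in every library. At least 5 were found in 83.0%, 88.4% and 85.1% of the young, adult and old cells. No endothelial, mural, cone or bipolar cell reached 5, and 1 rod did. Among single genes, Glul was found in 98.2% and 98.5% of the young and adult thinned Müller cells and in all 168 old ones. For Slc1a3 the shares were 86.0% (79.8 to 90.8), 84.9% (79.2 to 89.6) and 78.6% (71.6 to 84.5), with intervals that overlap. Kcnj10, at a mean below 1 UMI per thinned cell, was found in 30.4%, 36.2% and 30.4%. Before thinning, Kcnj10 was found in 68.0%, 70.7% and 57.6% of cells, the lowest share being that of the shallower old library.

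Over the whole Müller class, the levels of the 7 genes in the 3 libraries lay close together. None of the 7 differed by 1.5-fold between the old and young libraries, against 12.3% of the 9035 genes with at least 50 UMIs in the class, and none had a ratio of 5 to 4 or more either way, against 33.4% of them. Each of the 7 had at least 1184 UMIs there, and of the 3934 genes with at least 200 UMIs, 3.25% passed 1.5-fold, so that a count of 0 of 7 is near the background. The median log2 ratio of old to young was 0.03 over the 7 genes and 0.03 over all genes tested. None passed 1.5-fold between adult and young either, where the background was 10.4%, or the smaller fold, where it was 29.8%. The shares for the smaller fold and for adult to young include genes with as few as 50 UMIs. They are not matched to the depth of the 7 genes. The summed level of the 7 genes was 18078, 18607 and 18464 CPM in the young, adult and old libraries, so that these genes gave a similar part of the class's RNA in each library. The ratio of the sum was 1.02 (1.00 to 1.04) for old to young and 1.03 (1.01 to 1.05) for adult to young.

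Of the glutamate genes, Glul had a ratio of 1.02 (0.996 to 1.04) and Slc1a3 one of 0.888 (0.830 to 0.949) for old to young. Slc1a3 was thus the lowest of the 7, and its adult level was already below the young one at 0.909 (0.853 to 0.968). Kcnj10 had a ratio of 0.920 (0.793 to 1.07), an interval that includes 1. Aqp4 was at 1.08 (1.02 to 1.15) and Rlbp1 at 1.06 (1.02 to 1.11). Car14 had the highest ratio at 1.12 (1.02 to 1.24), while Car2 was level at 0.997 (0.949 to 1.05). The intervals of Slc1a3, Aqp4, Rlbp1 and Car14 did not include 1. Without the 6 young cells with astrocyte markers described next, those of Aqp4 at 1.02 (0.955 to 1.08), Rlbp1 at 1.02 (0.984 to 1.06) and Car14 at 1.07 (0.968 to 1.18) did include 1, while Slc1a3 was at 0.893 (0.834 to 0.955) and Car2 at 0.938 (0.893 to 0.986). Whether any of these differences exceeds the spread between animals cannot be told from 1 library per age. Rlbp1 and Car14 are also genes of the pigment epithelium, of which the old library held 54 cells and the others 8, and Ttr, a leading gene of that cluster, was at 6.64, 3.08 and 13.4 CPM in Müller glia. The part of such RNA in the ratios was not tested.

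**Figure D2:**
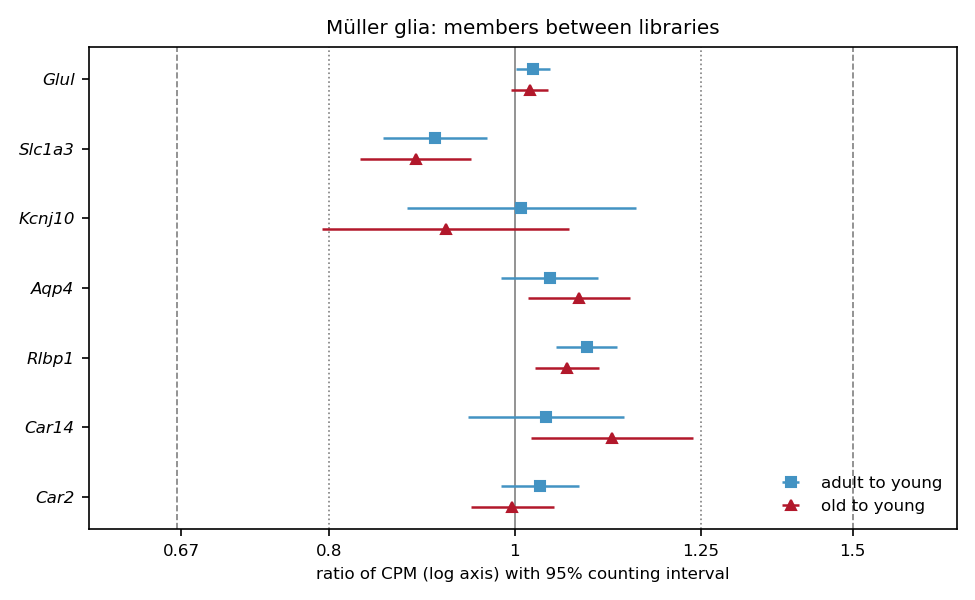
Ratio of CPM in Müller glia between libraries, on a log axis, for each gene, with exact 95% counting intervals, dashed lines at 1.5-fold and dotted lines at 5 to 4. All 14 points lie between the dotted lines, from 0.888 for Slc1a3 to 1.12 for Car14.

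The young Müller class held 6 cells with another profile, found after the values had been seen by counting cells with at least 3 of 5 astrocyte markers. Together they carried 425 UMIs of S100b, 142 of Pdgfra, 135 of Gfap and 18 of Pax2, genes that mark retinal astrocytes. The fifth marker, Aldh1l1, was at 60.5 CPM in them and at 50.1 CPM in the other young Müller cells. Of the Müller markers, Crym gave 0 UMIs in them, while Dkk3 was found in all 6, at 847 CPM against 2166 CPM in the others. Their Slc1a3 level, at 1250 CPM, was close to the 1148 CPM of the other 175 young Müller cells. Glul was lower in them, at 4457 against 10194 CPM, and Rlbp1 was at 1089 against 3262 CPM. Aqp4 gave no UMI at all in the 6 cells, in which the median depth was 16502 UMIs, Kcnj10 gave 1 and Car2 gave 4. The adult library held 2 cells past the same rule, both with Aqp4, Crym and no Pax2, and the old library held none. Without these cells the ratio of the sum was 0.983 for old to young and 0.996 for adult to young, which lies on the other side of 1 in both cases.

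The Müller class consisted of 2 clusters, which used the 7 genes differently. The larger, of 491 cells, was led by Spc25, Crym and Hes5. The smaller, of 115 cells, was led by Utp14b, Col2a1 and Abca8a, and it was shallower, with a median of 4313, 4482 and 2665 UMIs against 10444, 10011 and 8860. It made up 18.2%, 15.8% and 22.9% of the class in the young, adult and old libraries. Slc1a3 did not differ between the clusters beyond counting error, with a ratio of small to large of 1.06 (0.970 to 1.16), and neither did Kcnj10, at 0.883 (0.714 to 1.08). The smaller cluster held less Rlbp1, at 0.416 (0.386 to 0.448) of the larger cluster's level, and less Car2, at 0.523 (0.479 to 0.570). Rlbp1 was at 1321, 1803 and 1255 CPM in its young, adult and old cells and at 3325, 3563 and 3603 CPM in the larger cluster, so the levels of the clusters did not overlap. Car14, Glul and Aqp4 lay between, at ratios of 0.767, 0.795 and 0.827. Between ages, none of the 7 genes in the larger cluster had a ratio of 5 to 4 or more either way to the young library. The share of all genes past such ratios was not computed within clusters, so these cluster ratios have no background beside them. In the smaller cluster Aqp4 was at 908, 1210 and 1171 CPM, with ratios of 1.33 (1.07 to 1.66) for adult to young and 1.29 (1.04 to 1.61) for old to young. Rlbp1 there had an adult to young ratio of 1.36 (1.14 to 1.64) and an old to young ratio of 0.950 (0.784 to 1.15). The part of depth in these differences was not tested.

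**Figure D3:**
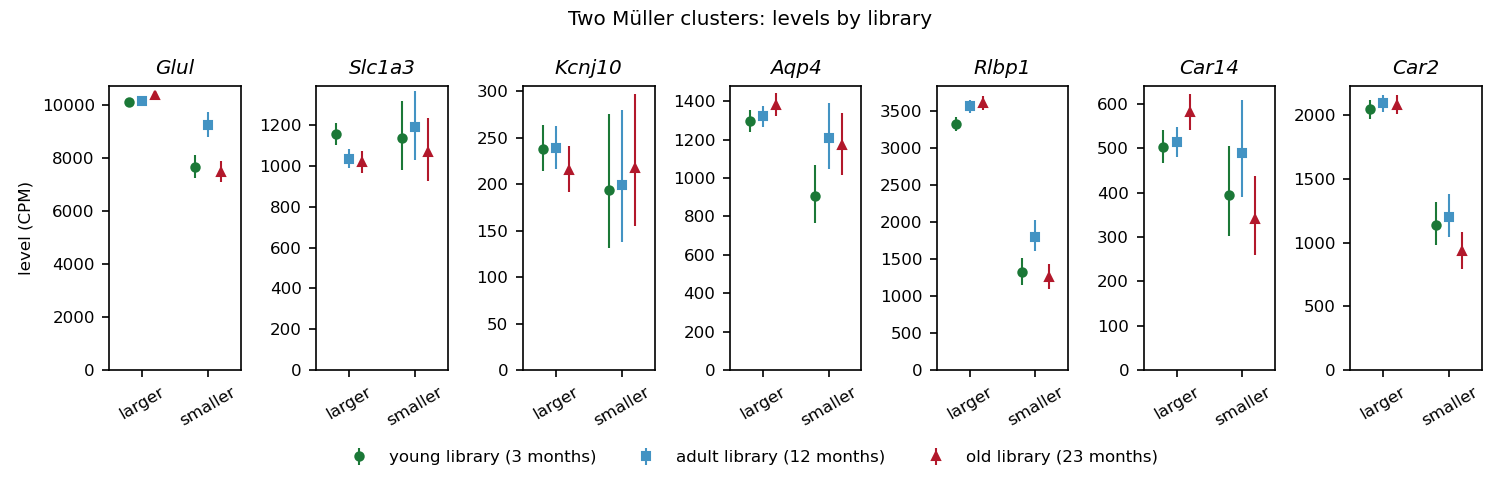
Level in CPM of each gene in the larger and smaller Müller cluster, with 1 point per library and exact 95% Poisson intervals. Rlbp1 and Car2 are lower in the smaller cluster in every library, whereas Slc1a3 and Kcnj10 overlap between clusters.

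Endothelial cells carried 1 of the glutamate genes without the other. Glul stood at 705, 839 and 1027 CPM in the young, adult and old libraries, while Slc1a3 gave 1, 3 and 5 UMIs in 448, 432 and 412 cells. The ratio of Glul was 1.46 (1.38 to 1.53) for old to young and 1.19 (1.12 to 1.26) for adult to young. Of all genes tested in the class, 6.63% had a higher ratio of old to young than Glul. The young level was the lowest in both endothelial clusters. The larger held 632, 730 and 903 CPM. The smaller, led by Gkn3, Sema3g and Stmn2, held 1145, 1447 and 1469 CPM, where the interval of the old to adult ratio, 0.925 to 1.11, includes 1. At each age the smaller cluster held more Glul than the larger, by 1.81, 1.98 and 1.63 times. The smaller cluster made up 10.9%, 13.7% and 19.7% of the class.

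Outside the class, Glul was in the same order in barcodes beyond the limits on cells, at 706, 780 and 1088 CPM, while rods, at 240, 134 and 409 CPM, were lowest in the adult library. With the rod level subtracted in each library the old to young ratio in endothelial cells was 1.33 and the adult to young ratio 1.51. The Müller gene Rlbp1 gave 6, 5 and 17 UMIs in young, adult and old endothelial cells. The class held 384, 567 and 221 Glul UMIs per Rlbp1 UMI, whereas Müller glia held 3.15, 2.95 and 3.01. In the class, red cell markers were lowest in the adult library, at 553, 199 and 1389 CPM, and pericyte markers lowest in the old one, at 1754, 1824 and 1070 CPM. The part of such RNA in the result was not tested.

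At an equal depth of 2000 UMIs, Glul was found in 63.1% (58.4 to 67.7), 69.3% (64.6 to 73.8) and 78.8% (74.5 to 82.7) of young, adult and old endothelial cells. Mural cells, at the same depth, gave 14.7%, 17.0% and 20.2%. The endothelial UMIs were spread over the class, with 5 cells holding between 5.97% and 8.01% of them in each library. In mural cells Glul was at 77.5, 102 and 113 CPM, and 16.1% of genes passed 1.5-fold between old and young there and 12.4% between adult and young, but Glul, at 1.46 and 1.32, did not.

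Car14 had the highest ratio between ages of any member with 50 UMIs in a class. In endothelial cells it was found as 15, 83 and 90 UMIs in the young, adult and old libraries, that is 4.59, 24.6 and 24.6 CPM. The adult and old levels thus lay together, 5.35 times (3.07 to 9.99) and 5.37 times (3.09 to 9.99) the young one. These UMIs came from 13, 54 and 55 cells, and the largest number in 1 cell was 8. They lay almost wholly in the larger cluster, as 15, 83 and 89 UMIs, while the Gkn3 and Sema3g cluster held 0, 0 and 1 and mural cells 0, 0 and 1. Car14 is also a pigment epithelium gene, and the 5 markers of that tissue summed to 4.59, 3.26 and 22.2 CPM in young, adult and old endothelial cells, with Ttr at 0.306, 1.18 and 13.4 CPM. The part of such RNA in the adult and old Car14 values was not tested. The endothelial class leaves out the clusters of mixed endothelial and mural profiles, with 313, 249 and 224 cells, which also met 6 of 6 endothelial markers. In these mixed clusters Car14 was at 6.47, 9.62 and 15.4 CPM, a smaller relative difference between old and young than in the endothelial class. Car2 was at 50.5, 67.8 and 67.9 CPM in endothelial cells, a ratio of 1.35 (1.10 to 1.65) for old to young. Of the 3 members with 50 UMIs or more in the class, Car14 alone passed 1.5-fold, against 10.1% of 9798 genes for old to young and 6.45% for adult to young. At 2000 UMIs per cell Car14 was found in 5 of 434, 13 of 404 and 13 of 406 cells.

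**Figure D4:**
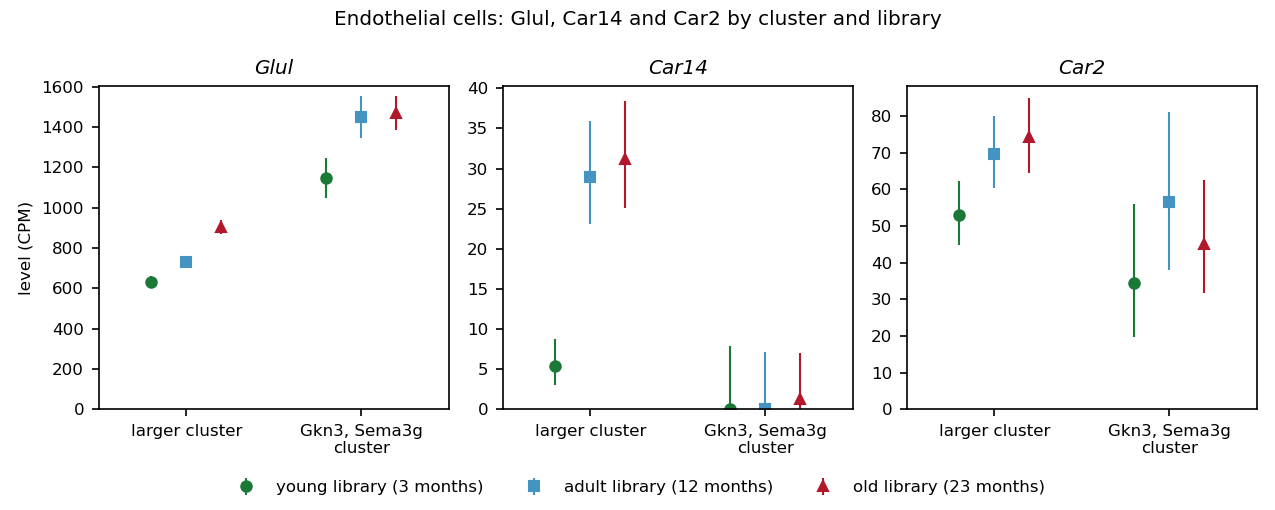
Level in CPM of Glul, Car14 and Car2 in the larger endothelial cluster and in the cluster led by Gkn3 and Sema3g, with 1 point per library and exact 95% Poisson intervals. Glul is higher in the Gkn3 and Sema3g cluster at each age, and Car14 is seen mainly in the larger cluster, where the adult and old points at 29.0 and 31.2 CPM lie above the young one at 5.35 CPM.

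Car2 was the only member at a high level in neurons. Rods held 492, 577 and 752 CPM in the young, adult and old libraries, cones 523, 567 and 760 CPM, and bipolar cells 637, 774 and 656 CPM. Müller glia held about 3 times as much, with ratios over the libraries of 3.25 (3.07 to 3.45) to rods, 3.24 (3.04 to 3.46) to cones and 2.86 to bipolar cells. The old to young ratio of Car2 was 1.53 (1.30 to 1.80) in rods, where 17.9% of 4801 genes passed 1.5-fold, and 1.44 with each cell classed by its own markers. Müller markers in the rod class were at 359, 297 and 549 CPM in the young, adult and old libraries. The part of Müller RNA in the rod values was not tested. In cones the Car2 ratio was 1.45 (1.24 to 1.71), where 15.7% of 4708 genes passed. The cone classes also differed in red cell markers, at 15057, 30.7 and 26.1 CPM in the young, adult and old libraries, and in rod markers, at 1849, 4902 and 1494 CPM, and the part of such RNA was not tested. In bipolar cells it was 1.03 (0.921 to 1.15) for old to young and 1.21 (1.10 to 1.34) for adult to young, where 13.2% and 9.22% of genes passed 1.5-fold. At 2000 UMIs Car2 was found in 63.8%, 62.0% and 76.8% of young, adult and old rods, against 17 of 190, 5 of 147 and 9 of 124 mural cells. In the amacrine class, with 18, 17 and 16 cells, Car2 was at 1549, 3511 and 4791 CPM, above Müller glia in the adult and old libraries. It was found there in 8, 13 and 15 cells, and at 2000 UMIs in 7 of 14, 12 of 15 and 14 of 15 cells. In the young, adult and old libraries 5 cells held 93.4%, 71.0% and 62.1% of these UMIs. The median depth of amacrine cells was 5585, 6308 and 9492 UMIs and their median mitochondrial share 7.92%, 8.35% and 4.53%. The part of cell quality in the levels was not tested.

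Glul in rods was at 240, 134 and 409 CPM in the young, adult and old libraries, and these values rested on few cells. Of the 248 UMIs in the old library, 51.2% lay in 5 of 234 cells, and 1 cell held 41. Over the libraries rods held 2.34 Glul UMIs per Rlbp1 UMI and 10.3 per Aqp4 UMI, against 3.03 and 7.63 in Müller glia. The adult library was furthest apart, with 1.66 and 14.8 in rods against 2.95 and 7.68 in Müller glia. With every cell given the same weight the old to young ratio in rods was 1.13, and as summed it was 1.71 (1.36 to 2.15), with a range of 1.13 to 2.20 over 10 alternatives. Between adult and young it was 0.559 (0.432 to 0.723), where 15.3% of genes passed 1.5-fold. In cones Glul rested on 21, 48 and 26 UMIs, and its adult to young ratio of 1.64 (0.965 to 2.89) stood against a background of 12.3%. Bipolar cells, the neurons that receive photoreceptor glutamate, held 53.7, 59.0 and 67.9 CPM of Glul and a single Slc1a3 UMI in 449 cells.

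The pigment epithelium cluster, with 1, 7 and 54 cells in the young, adult and old libraries, was named from Rpe65, Ttr and other markers and was too uneven to compare by age. It shared the retinoid gene and 1 carbonic anhydrase with Müller glia. Over the 62 cells Rlbp1 was at 2466 CPM, below the 3299 CPM of Müller glia, with a Müller to pigment epithelium ratio of 1.34 (1.24 to 1.44). Car14 was at 1099 CPM against 518 CPM, a ratio of 0.471 (0.420 to 0.529). Glul was at 734 CPM, Aqp4 at 39.5, Kcnj10 at 16.5 and Slc1a3 at 3.29 CPM, the last from 1 UMI. In the old library this cluster gave 21.8% of all Car14 UMIs and 10.0% of all Rlbp1 UMIs in kept cells, so Müller glia were not their only source. The lens cluster, of 36 adult cells and 1 young cell, held Car14 at 104 CPM and Car2 at 141 CPM over all its cells.

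A wider list of 57 genes for glutamate, potassium, water, retinoid and acid handling, which leaves out the 7, gave the setting. In Müller glia 36 of them reached 50 UMIs. Between old and young, 2 of the 36 were higher and 1 was lower by 1.5-fold or more, 8.33% in all against 12.3% of all genes. Between adult and young 2 were higher and none was lower, 5.56% against 10.4%. These were Got1, at 2.02 (1.19 to 3.55), and Slc12a2, a sodium, potassium and chloride cotransporter, at 19.9, 33.9 and 21.0 CPM with an interval of 1.10 to 2.66 for its ratio. The median log2 ratio of old to young was 0.05 for the 36, and that of all genes 0.03. Rgr, a retinal opsin-like protein that isomerises retinoids, was at 18.7, 18.0 and 33.7 CPM, a ratio of 1.80 (1.14 to 2.90). Got1, the cytosolic aspartate aminotransferase, was at 12.7, 25.7 and 22.3 CPM, with an interval of 0.994 to 3.18 around 1.76. Rods held Got1 at 289 CPM, cones at 476 CPM and bipolar cells at 222 CPM. Rod markers in the Müller class were at 358, 1009 and 699 CPM in the young, adult and old libraries. The part of RNA from those neurons in the Got1 values was not tested. Slc6a6, the taurine transporter, was at 242, 283 and 146 CPM, a ratio of 0.602 (0.509 to 0.710) for old to young. Rgr, like Ttr, is a leading gene of the pigment epithelium cluster, and the part of RNA from those cells in its value was not tested.

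**Figure D5:**
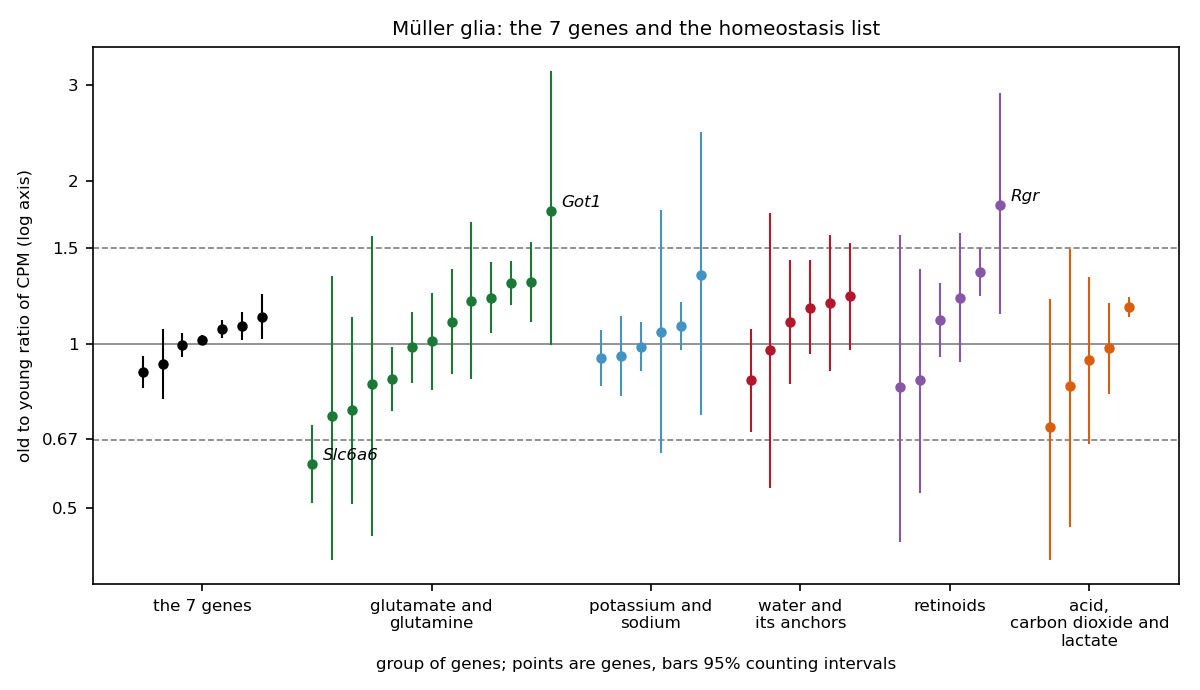
Old to young ratio of CPM in Müller glia, on a log axis, for the 7 genes and for the 36 genes of the wider list by group, with exact 95% counting intervals and dashed lines at 1.5-fold. The 7 genes lie between 0.888 and 1.12, and Got1, Rgr and Slc6a6 are the genes past a dashed line.

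Among the more abundant genes of each group, the second glutamate transporter Slc1a2 (GLT-1) was at 502, 605 and 651 CPM, a ratio of 1.30 (1.18 to 1.42), unlike Slc1a3. Cones held Slc1a2 at 1314 CPM, and the part of RNA from cones in the Müller value was not tested. The GABA transporter Slc6a11 was at 0.864 (0.755 to 0.989). The sodium pump subunits Atp1b2 and Atp1b3, of the pump that drives both glutamate and potassium uptake, had ratios of 0.944 and 1.08, with intervals that include 1. Of the proteins that anchor Aqp4 at endfeet, Dag1 was at 0.859, Dtna at 1.17 and Sntb1 at 1.22, again with intervals that include 1. Rdh10 and Degs1, enzymes of retinoid metabolism, were at 1.11 and 1.22. The acid and lactate group was led by Bsg, the chaperone of monocarboxylate transporters, at 1.17 (1.12 to 1.22), with Slc16a1 at 0.983 and Slc4a7 at 0.935.

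Some known partners were scarcely detected. Kcnj16, which forms channels with Kcnj10, gave 1 UMI in 606 Müller cells. The bicarbonate transporter Slc4a4 gave 29, 2 and 1 UMIs in the young, adult and old libraries and the gap junction gene Gja1 gave 16, 3 and 1. Of the young UMIs, 28 of Slc4a4 and 10 of Gja1 lay in the 6 cells with astrocyte markers. Both genes were below the 50 UMIs needed for a ratio.

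The genes whose pattern over the 6 classes and 3 libraries was most like that of each member were found by Pearson's r of log2(CPM + 10) over these 18 profiles among 14309 genes. The points share libraries and depths, so r is a description. For Slc1a3 the nearest were Olfm4, Dkk3 and Col2a1 (r = 0.995, 0.994 and 0.993), for Kcnj10 Frzb, Etnppl and Chrdl1 (0.994, 0.993 and 0.993) and for Aqp4 Pax6, Col9a1 and Dkk3 (0.996, 0.995 and 0.995). Rlbp1 was nearest to Espn, Crym and Spc25 (0.994, 0.993 and 0.992). Glul, with its endothelial level, was nearest to Ankrd29, Apoe and Rhpn2 (0.977, 0.972 and 0.965), and Car14 to Tox3, Enpp2 and Acot1 (0.986, 0.983 and 0.983). Car2, with its neuronal level, was nearest to Aldoc, Zfp536 and Ncam1 (0.986, 0.985 and 0.975). Within the 7, Slc1a3 and Aqp4 were the closest pair at 0.990 and Glul and Car2 the most distant at 0.318.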

How the data were processed

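Cells of 3 CD31-enriched retinal suspensions were captured with 10x 3′ v3.1 chemistry, 1 library per age. Per the submitters' processing notes, the authors used Cell Ranger 6.1.2 and mm10, and the deposited matrices hold raw UMI counts, 16577026, 19977238 and 17021820 in 2491, 3243 and 2751 barcodes for young, adult and old. Barcodes shared by pairs of libraries numbered 0 to 3. Cells with 500 to 6000 genes and 1 to 20% mitochondrial UMIs were kept, and Scrublet (scanpy 1.11.5) removed 8, 17 and 12 doublets. Libraries were integrated by CCA in Seurat 5.3.0 (2000 features, the 7 genes and the wider list left out, 30 components, resolution 0.5). Clusters were named from fixed markers. Counts were summed per class and library and given as CPM. Ratios have exact conditional, levels exact Poisson and shares Clopper-Pearson 95% intervals. Only the ratio intervals were run on simulated data. Those were Poisson counts without spread between cells or animals, so the run covers counting error only. No p-value was computed, since each age is 1 library. Named were the 7 genes, list genes past 1.5-fold with 50 UMIs, the 3 highest of each list group and the 3 genes most like each member. Some genes that this rule names are not reported here. The members and lists were chosen with earlier results of these data known. Alternatives were other cell limits, doublets kept, thinning, 2 scalings, equal cell weights, 3 other classings, removal of cells with other markers and subtraction of the rod level. Positions are from GENCODE M21, promoters from RefSeq.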

Additional observations from a re-analysis of the deposited data

How the results depend on the processing

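No paired analysis was possible because the groups share only the replicate number 1. The old to young ratio of the summed 7 genes in Müller glia, 1.02, crossed to the other side of 1 with 1000 to 6000 genes and 1 to 10% mitochondrial UMIs (0.956), with every cell given the same weight (0.974), with the rod level subtracted (0.995) and without cells that carry astrocyte markers (0.983), a setting chosen after the data were seen. It moved to 1.00 with thinning and to 1.00 with median-of-ratios scaling, and to 1.06 with each cell classed by its own markers. The adult to young ratio, 1.03, became 0.981 with the stricter cell limits, 0.779 with cells classed by their own markers and 0.996 without cells that carry astrocyte markers, and 1.05 with thinning and 1.01 with median-of-ratios scaling. Under classing by own markers 25 of the 36 adult lens cells counted as Müller glia, with Slc1a3 and Kcnj10 at 0 UMIs in them. Across 13 alternatives for each of the 14 single ratios in Müller glia, values lay between 0.669 and 1.21, and none reached 1.5-fold. Of these 182 values, 26 lay on the other side of 1 from the reported ratio, in 10 of the 14 ratios. Those whose reported interval did not include 1 were Glul for adult to young (0.970 with stricter limits, 0.765 by own markers, 0.995 without astrocyte markers), Aqp4 for old to young (0.995 with stricter limits), Rlbp1 for adult to young (0.832 by own markers) and Car14 for old to young (0.974 with equal weights). The others were Glul and Car2 for old to young and Kcnj10, Aqp4, Car14 and Car2 for adult to young. Slc1a3 stayed below 1 in all 13 for both contrasts, and Kcnj10 and Rlbp1 kept their side of 1 for old to young. The summed level in Müller glia was 25.7 times the mean of the 5 other classes, 24.3 with stricter limits, 24.9 with equal weights, 27.4 at resolution 1.0 and 49.2 with the rod level subtracted. In endothelial cells, where these alternatives were added after the data were seen, Glul for old to young moved from 1.46 to 1.33 with the rod level subtracted, and its range over 12 alternatives was 1.33 to 1.51, while Car14 ranged from 4.93 to 6.32 over 11. The ratio of Car2 for old to young ranged from 1.14 to 1.71 there, from 1.44 to 1.66 in rods and from 1.40 to 1.89 in cones, over 11, 10 and 10 alternatives, and so crossed 1.5-fold. In bipolar cells its adult to young ratio ranged from 1.14 to 1.55 over 10, the highest with stricter limits. Of the wider list, 3 of 36 genes passed 1.5-fold, 7 of 43 with a minimum of 20 UMIs (16.3%, against 18.9% of all genes), 1 of 25 with 200 (4.0% against 3.25%), and 10 of 36 at a ratio of 5 to 4 or more (27.8% against 33.4%). The cause of these changes was not tested. Depth limited Kcnj10 most, with 338 to 459 UMIs per library in Müller glia, and Car14 in young endothelial cells, with 15. With 1 library per age, library and age cannot be told apart.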

Other observations

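Barcodes outside the limits on cells, 778, 1269 and 1038 in the young, adult and old libraries, held Rlbp1 at 150, 145 and 203 CPM, Aqp4 at 46.4, 65.3 and 91.3 CPM and Slc1a3 at 61.0, 78.4 and 85.4 CPM. A cluster with too few UMIs per cell to be given a name, of 58, 73 and 81 cells, held Glul at 470, 858 and 1171 CPM, and its Slc1a3 came to 2 UMIs in all. In the clusters of mixed endothelial and mural profiles Glul was at 543, 608 and 635 CPM, a smaller relative difference between old and young than in the endothelial class. The adult Müller class carried lens markers at 547 CPM, against 0.604 CPM in the young and 1.91 CPM in the old class.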
